A study of Mus musculus with 9 samples.

Results

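Antioxidant, selenoprotein and ferritin genes were followed in immune cells sorted from the retina of Arr1-/- mice. The 10 genes were Sepp1, Gpx1, Gpx4, Prdx1, Prdx5, Txn1, Sod1, Hmox1, Fth1 and Ftl1, taken by their symbols from the 27998 genes of the deposited count tables, and all 10 were present. Every mouse was a female that lacked visual arrestin (Arr1-/-), a protein that ends the light response of photoreceptors, so that constant light damages its photoreceptors. All mice, 2 to 5 months old, were bred in constant darkness. They were killed at day 0 (no light) or after constant room light of about 200 lux for 7 days (day 7) or 20 days (day 20). Live CD45+ CD11b+ cells were sorted after digestion of the retina at 37 °C and made into droplet-based single-cell 3′ libraries, 3 for each day. No wild-type animal was included, so the lack of arrestin is shared by all groups. The sources do not say how the animals of a day were divided over its 3 libraries, and the p-values below measure the spread between libraries, which may be technical.

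The 9 libraries shared cell barcodes. Of 1365 different barcodes, 612 were listed in more than 1 library and 270 in all 9. Each barcode was therefore kept only in the library where it had most UMIs (unique molecular identifiers, one for each captured RNA molecule), and the counts as deposited are given beside the results. After filters on detected genes and mitochondrial UMIs, 851 cells remained. Of these, 730 had more UMIs of a list of myeloid markers than of any other marker list and are called retained cells. Day 0 had 254 of them, day 7 had 280 and day 20 had 196. They held 1108376 UMIs, from 19773 in day 7 replicate 3, with 16 cells, to 263852 in day 7 replicate 1, with 191 cells. The other 121 cells, 79 of them highest in rod markers, were left out, 77 from day 0, 26 from day 7 and 18 from day 20. The sort markers Itgam (CD11b) and Ptprc (CD45) had UMIs in the retained cells of every library, 225 and 170 in all, against 5 and 6 in left-out cells. Sag, the gene of visual arrestin, had 7 UMIs in retained and 0 in left-out cells. Levels are given as CPM, the UMIs of a gene or list for every 1000000 UMIs of a library's retained cells. Other RNA moved with the day. The immediate early list was at 30901 to 40830 CPM in day 0 libraries, 2581 to 5159 at day 7 and 6923 to 19082 at day 20, and the heat shock list at 1077 to 2011, 186 to 288 and 327 to 481. The rod list was at 1088 to 6373 CPM at day 0, 334 to 1011 at day 7 and 190 to 1012 at day 20. The part of these lists in the results below was not tested except where a value is given.

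Selenoproteins carry selenocysteine, an amino acid inserted at a UGA codon that otherwise ends translation. Glutathione peroxidases and peroxiredoxins reduce peroxides at the expense of glutathione and thioredoxin, superoxide dismutase turns superoxide into hydrogen peroxide, and heme oxygenase 1 breaks heme down into biliverdin, carbon monoxide and iron. Ferritin, a shell of heavy (Fth1) and light (Ftl1) chains, stores iron in a form that does not feed radical chemistry. Its mRNAs carry an iron-responsive element, a hairpin in the 5′ untranslated region through which iron sets their translation. Photoreceptor outer segments are rich in oxidisable lipid, and microglia and infiltrating myeloid cells take up their debris when photoreceptors die.

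The feature shared by Sepp1, Gpx1 and Gpx4 is the in-frame selenocysteine codon, shown here in capitals within the 12 coding bases on either side, on the gene strand of GRCm38 (the build named mm10 in the labels) and with the GENCODE M21 transcripts. The first of the 10 such codons of Sepp1, gene name Selenop in current annotation, is codon 59 of 380 in exon 2 at chr15:3274836-3274862. That of Gpx1 is codon 47 of 201 in exon 1 at chr9:108339439-108339465. That of Gpx4 is codon 129 of 253 in exon 3 at chr10:80054725-80054751. All 3 genes lie on the plus strand.
Sepp1: cttcaagccagcTGAtacttgtgtctt
Gpx1: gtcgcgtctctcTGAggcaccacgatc
Gpx4: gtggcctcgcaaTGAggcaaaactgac
In the annotation 24 genes have such codons, and these 3 are the only ones among the members.

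The iron-responsive elements of the ferritin genes are the sequences that set this pair apart from the other members. They lie in exon 1, in the 5′ untranslated region, and the 6 bases of the hairpin loop are in capitals. That of Fth1 is at chr19:9982732-9982760 on the plus strand and that of Ftl1 at chr7:45459779-45459807 on the minus strand.
Fth1: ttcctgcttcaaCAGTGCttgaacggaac
Ftl1: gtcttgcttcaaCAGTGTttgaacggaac
The pattern searched was the loop CAGTGN with a last base other than G, an unpaired C before its 5′ arm, and arms of 5 bases that pair with each other. It was found in 23 of the 20837 genes with an annotated 5′ untranslated region, or 0.110%.

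Of the 9 members with a promoter entry in RefSeq (GRCm38.p6), 2 held the antioxidant response motif TGACNNNGC, to which the factor NRF2 is known to bind. The member without an entry was Hmox1, whose promoter was therefore not searched. Sites farther from the start of any member were not searched either. It was searched on both strands of the 250 bases before and 50 bases after each start site, and 12.4% of 32851 such windows held it, beside 2 of the 15 windows of the members, a share near that background. The matches are shown in capitals on the gene strand, where they read as the reverse complement. That of Prdx1 lies at chr4:116685457-116685483, with its first base 133 bases before the start, and that of Sod1 at chr16:90220697-90220723, 56 bases before it. Both genes are on the plus strand.
Prdx1: agggaaagcGCTGAGTCAtcccccgta
Sod1: ccaaggtggGCGTGGTCAgactcaggc

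The members covered a wide range of levels in the retained cells. Each RNA is counted once at its 3′ end, so the levels are not scaled to length. The ferritin chains were highest, Ftl1 at 10911 ± 2592 and Fth1 at 9646 ± 2486 CPM (mean ± SD, n = 9 libraries over all days). Sepp1, the plasma and tissue selenium carrier, followed at 2037 ± 390. Gpx1, Prdx5, Prdx1 and Gpx4 lay between 504 ± 97.1 and 420 ± 143. Hmox1 stood at 184 ± 170, Txn1 at 133 ± 76.7 and Sod1 at 41.4 ± 19.4. Neighbours in this order differed by less than their SD, except Fth1 from Sepp1, Sepp1 from Gpx1, Gpx4 from Hmox1 and Txn1 from Sod1. The order pools days that differ, and at day 0 alone Hmox1, at 378 ± 71.5, was at the level of Prdx5 (364 ± 41.0) and Gpx4 (358 ± 89.4). Counts behind these levels ran from 12812 UMIs of Ftl1 to 51 of Sod1. The counting interval is therefore wide for the last genes. Fth1 and Ftl1 have near-identical processed pseudogenes in the mouse genome, and how such reads were assigned is not given in the sources used here.

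**Figure D1:**
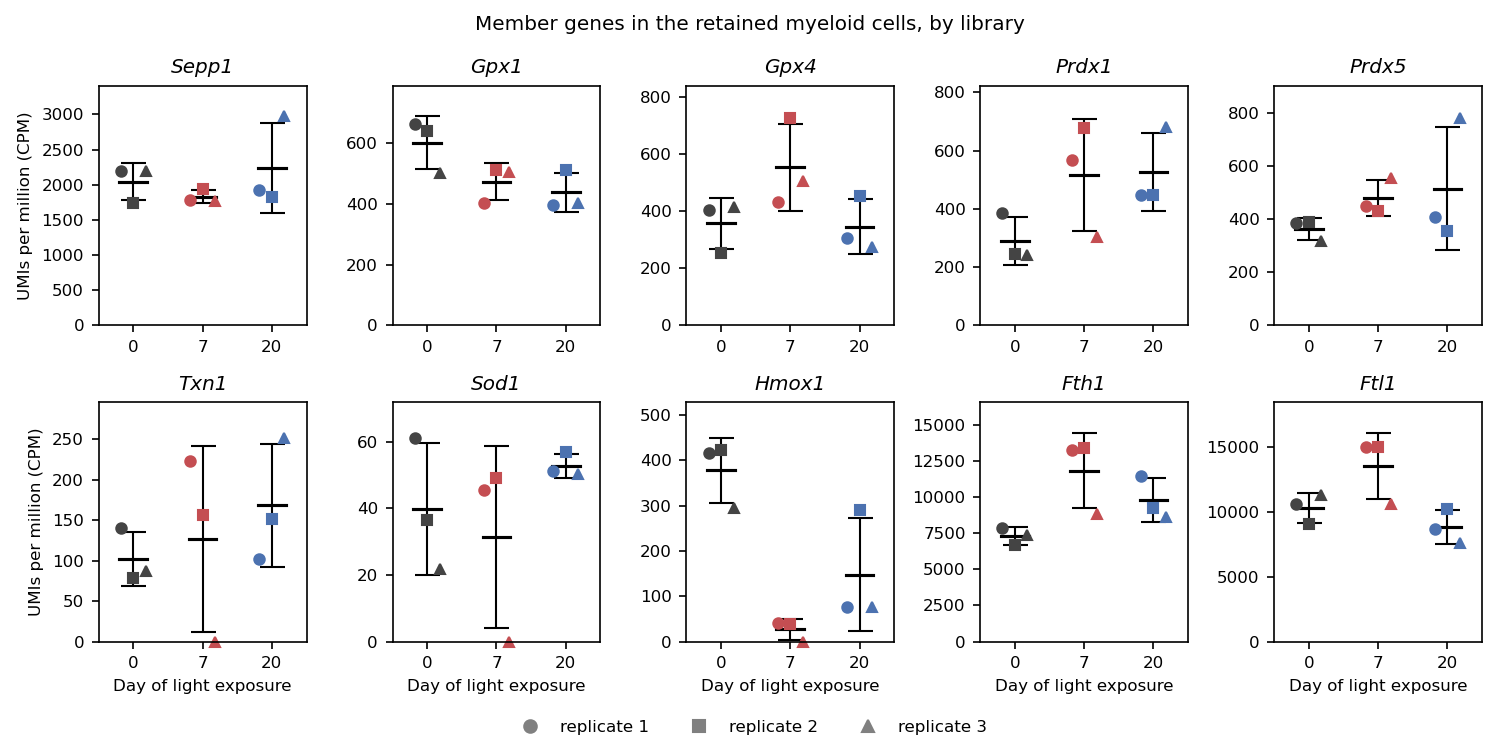
Level of each of the 10 genes in retained cells, in CPM on the y axis from 0, for each library by day of light (x axis), with marker shapes for replicates 1 to 3 and bars for the mean ± SD of 3 libraries. Hmox1 sits between 295 and 422 at day 0 and at or below 41.7 at day 7, while Fth1 at day 7 sits above its day 0 libraries, and Sepp1 shows no such separation.

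Hmox1, the stress-induced heme oxygenase, was lower after 7 days of light. Its level was 416, 422 and 295 CPM in day 0 replicates 1 to 3, 41.7, 39.3 and 0 at day 7, and 76.9, 291 and 75.5 at day 20. No day 7 library reached the lowest day 0 library, as for 24.9% of genes, and day 20 lay between them, with replicate 2 close to day 0 and the other two near day 7. The 0 in day 7 replicate 3 stands on 19773 UMIs, where a floor of 3 UMIs is 152 CPM and the exact 95% upper bound is 187 CPM. Hmox1 fell by 3.21 on the log2 scale from day 0 to day 7 (SE 0.53, 9.28-fold lower, adjusted p = 0.000378, edgeR quasi-likelihood test with Benjamini-Hochberg adjustment over 1439 genes). In counts, 15 UMIs stood against 176, 10.1-fold lower for equal totals with a 95% interval of 5.97 to 18.5 that covers counting error only. Hmox1 was 1 of 3 members of the 9 tested that passed at day 7, beside 26% of all genes tested, or 16.5% lower and 9.45% higher. DESeq2 called 2 of the 3, Hmox1 and Fth1, and not Prdx1 (adjusted p = 0.0520). It passed in each of the 9 fits that left out 1 library.

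At day 20 the fitted Hmox1 change from day 0 was -1.16 (SE 0.43, adjusted p = 0.183 in edgeR). None of the 9 members passed in this comparison in edgeR or DESeq2, where 2.92% of genes did in edgeR, 1.11% higher and 1.81% lower. For Hmox1 all 3 day 20 libraries lay below all day 0 libraries, as 13.8% of genes did, but by less than the counting error. Day 20 replicate 2 stood at 291 CPM (46 UMIs, 95% counting interval 213 to 388). Day 0 replicate 3 stood at 295 (27 UMIs, 195 to 429). Whether Hmox1 passed rested on day 20 replicate 2. Without it the change was -2.33 (adjusted p = 0.0204). From day 7 to day 20 Hmox1 rose by 2.05 (SE 0.57, adjusted p = 0.0477 in edgeR), the only member to pass in this fit, beside 5.35% of genes, 4.24% higher and 1.11% lower. The day 20 libraries lay above those of day 7, as for 13.7% of genes. The call was lost without day 20 replicate 2 (0.83, adjusted p = 0.602) and in 6 other fits of the 9 that left out 1 library, with adjusted p between 0.0537 and 0.261. Of these 9 fits it held only in those without day 20 replicate 1 or day 20 replicate 3. In DESeq2 Hmox1 did not pass (adjusted p = 0.0648), and Ftl1 did.

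The difference in Hmox1 came from few cells. Its 246 UMIs lay in 75 of the 730 cells, and 21 of them in 1 cell. At day 0, 15 cells with at least 3 Hmox1 UMIs held 140 of the 176 UMIs. They came from all 3 libraries, and their median depth was 6836 UMIs per cell against 949.5 for all day 0 cells. At day 7 only 1 cell had 3 Hmox1 UMIs. At day 20, 3 cells held 32 of 55 UMIs, and all 3 were from replicate 2. Cells with 1 or 2 Hmox1 UMIs numbered 29, 11 and 16 at days 0, 7 and 20. Without the cell richest in Hmox1 in each library, the day 0 libraries stood at 313, 323 and 179 CPM, day 20 replicate 2 at 207, and day 7 replicate 1 at 30.5, so the day 0 libraries remained above those of day 7.

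**Figure D2:**
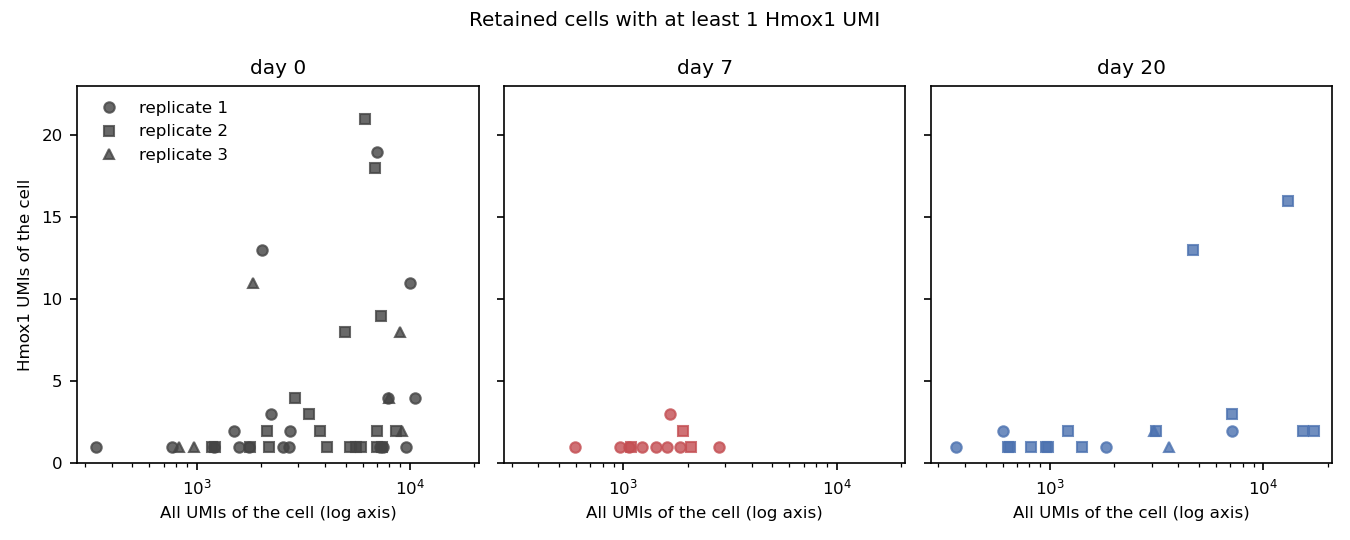
Hmox1 UMIs of each retained cell (y axis) against all UMIs of that cell (x axis, log scale), by day of light. Cells with at least 3 Hmox1 UMIs are 15 at day 0, 1 at day 7 and 3 at day 20, and most of those at day 0 are far deeper than the day's median cell of 949.5 UMIs.

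The same 15 day 0 cells, chosen for their Hmox1 and therefore given without a test, differed from the 210 day 0 cells with no Hmox1 UMI in other RNA. The immediate early list stood at 47184 against 22890 CPM and the heat shock list at 2468 against 813. The homeostatic microglia list stood at 4068 against 3462 and the rod list at 4413 against 3881. Ftl1 stood at 15906 against 7831 CPM, and Fth1 at 6925 against 7881. The median depth of the cells with no Hmox1 UMI was 775. Among all 36 day 0 cells with at least 3000 UMIs, whatever their Hmox1, the immediate early list stood at 55449 CPM and Ftl1 at 12817. Some of the 15 cells rich in Hmox1 are among these 36. The heat shock, homeostatic microglia and rod lists are not given by depth. Whether any of these differences was particular to cells rich in Hmox1, rather than shared by deep cells, was not tested.

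Depth was therefore equalised by thinning every cell to 580 UMIs, which 548 retained cells reached. Hmox1 was then detected in 12.1%, 8.64% and 9.52% of day 0 cells, 3.29%, 1.59% and 0% of day 7 cells and 2.44%, 8.70% and 4.17% of day 20 cells, by replicate. Before thinning the mean shares over the 3 libraries of a day were 16.4% at day 0, 2.94% at day 7 and 8.60% at day 20. The mean over the 6 light libraries was 6.73 percentage points below that of day 0 (two-sided exact permutation p = 0.0476 over 3 against 6 libraries, adjusted p = 0.331 over 1439 genes). It was the only one of the 10 members with an unadjusted p under 0.05, beside 14.4% of all genes, and no gene passed after adjustment. In the left-out cells the share was 7.23% (exact 95% interval 2.70 to 15.1), with a median depth of 967 UMIs against 934.5 in retained cells. The mean shares of day 0, 10.1% ± 1.81 (SD, n = 3), and day 20, 5.10% ± 3.23, lay within this interval. That of day 7, 1.63% ± 1.65, lay below it. The left-out cells were pooled over days, and 77 of all 121 were from day 0. Whether single Hmox1 UMIs in a cell came from that cell or from free RNA was not tested.

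In the counts as deposited, with shared barcodes in every library that lists them, Hmox1 stood at 396, 386 and 367 CPM at day 0 and at 155, 215 and 385 at day 7. Day 7 replicate 3, at 0 in the counts with each barcode in 1 library, then lay within the day 0 range. The fitted change to day 7 was -0.59 (SE 0.23, adjusted p = 0.167 in edgeR), and no member passed in any comparison between days. Each call of a member given here thus depended on assigning a barcode to 1 library.

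Fth1, the ferritin heavy chain with ferroxidase activity, was higher at day 7. It stood at 7892, 6658 and 7390 CPM at day 0, 13250, 13406 and 8850 at day 7, and 11495, 9236 and 8635 at day 20. All 6 light libraries lay above the 3 day 0 libraries, and the libraries of the 2 light days overlapped. Fth1 rose by 0.80 (SE 0.22, 1.74-fold, adjusted p = 0.0171 in edgeR) at day 7. At day 20 the fitted change was 0.42 (SE 0.22, adjusted p = 0.370), with libraries above day 0 as for 11% of genes. The day 7 call was lost without day 0 replicate 2 (adjusted p = 0.0760), day 0 replicate 3 (0.0813), day 7 replicate 1 (0.109) or day 7 replicate 2 (0.161), with the change between 0.70 and 0.83 in these 4 fits. It was lost as well in cells thinned to equal depth (0.54, adjusted p = 0.110).

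Ftl1, the light chain, showed a different order of days. It stood at 10620, 9058 and 11292 CPM at day 0, 15001, 15044 and 10621 at day 7, and 8714, 10248 and 7603 at day 20. Day 7 replicates 1 and 2 were above every other library, and all day 20 libraries lay below those of day 7. The change to day 7 was 0.50 (SE 0.22, adjusted p = 0.103 in edgeR). It passed with day 7 replicate 3 left out (0.74, adjusted p = 0.00761), in cells of equal depth (0.75, adjusted p = 0.0166) and without the deepest cells (0.80, adjusted p = 0.0120). From day 7 to day 20 the change was -0.72 (SE 0.22, adjusted p = 0.0687), with no overlap, as for 5.77% of genes. This change passed in DESeq2 (-0.73, adjusted p = 0.0435), with a replicate block (-0.71, adjusted p = 0.0484 in edgeR), without day 7 replicate 3 (-0.90, adjusted p = 0.0115) and without the 2 smallest libraries (-0.83, adjusted p = 0.00708). The sum of both chains was 1.76% ± 0.17 of all UMIs in the dark (SD, n = 3 libraries for each day), 2.54% ± 0.51 after 7 days of light and 1.86% ± 0.21 after 20 days.

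The ratio of Fth1 to Ftl1 UMIs, a measure chosen after the values were seen, rose in order of the days. It was 0.743, 0.735 and 0.654 at day 0, 0.883, 0.891 and 0.833 at day 7, and 1.319, 0.901 and 1.136 at day 20, with no overlap between any days. The mean of the 6 light libraries exceeded that of day 0 by 0.283 (two-sided exact permutation p = 0.0238, the smallest that 3 against 6 libraries allow). Because the ratio was chosen from these values, this p-value cannot serve as a test of it. How often the ratio of other gene pairs separates the days is not given. Between any 2 days, 3 against 3 libraries gave an exact permutation p of 0.1, the smallest possible. With the counts as deposited, from the same libraries and under the same limit, the difference was 0.110 (exact permutation p = 0.0238). The light libraries again lay above those of day 0.

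This ratio depended on the depth of the cells. In cells thinned to equal depth the difference was 0.0263 (exact p = 0.929), and without the deepest cells 0.153 (exact p = 0.333), and in both cases the groups overlapped. At day 0 the ratio was 1.31 in the 137 cells with under 1000 UMIs, 1.04 in the 81 cells with 1000 to under 3000 and 0.489 in the 36 cells with at least 3000. In the deepest class Ftl1 was at 12817 CPM, against 7595 in the shallowest, and Fth1 at 6263 against 9981. The immediate early list rose over the same classes, from 6922 to 12837 and 55449 CPM. At day 7 the ratio was 0.871, 0.878 and 0.927 in the 3 classes and the immediate early list 2461, 3709 and 6178. At day 20 the ratio was 1.21, 1.14 and 0.797. The last came from 16 cells and ranged from 0.650 to 1.33 over the 3 libraries. The lowest ratio of these 9 was thus in the deep day 0 cells, and the highest in the shallow cells of the same day.

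**Figure D3:**
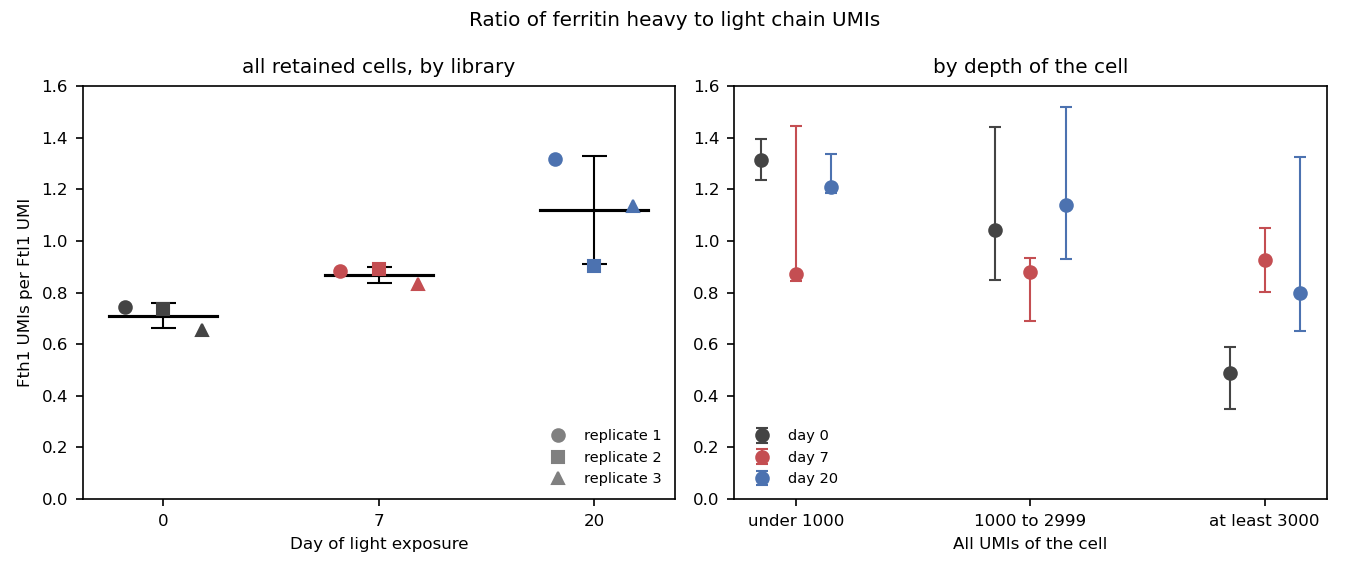
Ratio of Fth1 to Ftl1 UMIs in retained cells: on the left by library and day of light (x axis, bars for the mean ± SD of 3 libraries), and on the right for each day by the depth of the cells (x axis, under 1000, 1000 to under 3000 and at least 3000 UMIs), with lines for the range over libraries. By library the days do not overlap, with day 0 at 0.654 to 0.743, whereas by depth the day 0 ratio goes from 1.31 in the shallowest cells to 0.489 in the deepest.

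Among day 0 cells of equal depth, those with immediate early RNA above the median held 5.86 Ftl1 and 3.82 Fth1 UMIs per cell on average, and the others 3.93 and 5.33. Hmox1 was detected in 12.6% of the first (exact 95% interval 6.48 to 21.5) and 7.84% of the second (3.45 to 14.9), and these intervals overlap. The same split at day 7 gave 8.90 Ftl1 and 7.76 Fth1 UMIs above the median, against 8.77 and 7.70. At day 20 it gave 5.25 and 6.32 against 6.04 and 6.94. The gap in Ftl1 seen at day 0 was small at day 7 and of the other sign at day 20. The classes held 87 and 102 cells at day 0, 99 and 126 at day 7, and 56 and 78 at day 20, so the median was not 1 cut for all days. The immediate early list was lower at days 7 and 20 than at day 0, so the classes are not alike between days. Whether the link of Ftl1 with this list differed between days was not tested. Hmox1 was detected in 3.03% against 2.38% at day 7 and in 3.57% against 7.69% at day 20. Over cells of 1 library, Fth1 and Ftl1 log levels had a median Pearson correlation of 0.43 in the 7 with at least 40 cells. By replicate it was 0.35, 0.17 and 0.10 at day 0, 0.63 and 0.57 at day 7, and 0.65 and 0.43 at day 20. Gpx1 with Gpx4 had a median of 0.20 (-0.07 to 0.41). Cells of a library share its depth and free RNA, so these are descriptions.

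Prdx1, the cytosolic peroxiredoxin that thioredoxin reduces, was the other member higher at day 7. It stood at 385, 245 and 240 CPM at day 0, 569, 677 and 303 at day 7, and 449, 449 and 680 at day 20. Day 7 replicate 3 lay within the day 0 range, and all day 20 libraries lay above the day 0 libraries, as for 11% of genes. Prdx1 rose by 1.02 (SE 0.33, 2.03-fold, adjusted p = 0.0318 in edgeR) at day 7, and the day 20 change was 0.81 (SE 0.33, adjusted p = 0.232). The day 7 call was lost without day 0 replicate 2 (adjusted p = 0.130), day 0 replicate 3 (0.109), day 7 replicate 1 (0.124) or day 7 replicate 2 (0.162). In cells of equal depth the change was 0.63 (adjusted p = 0.287), and in the counts as deposited 0.50 (adjusted p = 0.147).

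With both light days averaged against day 0, Hmox1 at -2.19 (SE 0.39, adjusted p = 0.000885), Prdx1 at 0.91 (SE 0.29, adjusted p = 0.0366) and Fth1 at 0.61 (SE 0.20, adjusted p = 0.0399) passed in edgeR, beside 19.4% of genes, 4.59% higher and 14.8% lower. The light libraries all lay below day 0 for Hmox1, as for 11% of genes, and all above it for Fth1, as for 4.24%. For Hmox1 the gap between day 20 replicate 2 (291 CPM) and day 0 replicate 3 (295 CPM) was within counting error. Hmox1 passed in all 9 fits without 1 library, Prdx1 in 5 and Fth1 only in that without day 7 replicate 3.

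Prdx5, a peroxiredoxin found in mitochondria, peroxisomes and cytosol, stood at 385, 390 and 317 CPM at day 0, 451, 432 and 556 at day 7, and 410, 354 and 780 at day 20. Its day 7 libraries all lay above day 0, as for 12.6% of genes, but the fitted change of 0.44 (SE 0.32) did not pass (adjusted p = 0.347 in edgeR). Day 20 overlapped both other days.

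Txn1, the thioredoxin that gives electrons to peroxiredoxins, stood at 141, 78.1 and 87.5 CPM at day 0, at 224, 157 and 0 at day 7, and at 103, 152 and 252 at day 20. The 0 was again day 7 replicate 3. The day 7 change of 0.80 (SE 0.49, adjusted p = 0.246 in edgeR) did not pass. Sod1, the cytosolic copper-zinc superoxide dismutase, had 19, 17 and 15 UMIs at the 3 days and was too low to be tested. It lay between 21.9 and 61.2 CPM in 8 libraries and at 0 in day 7 replicate 3. A change of Sod1 was not detectable at this depth.

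The selenoprotein members passed in no comparison between days with all 9 libraries in edgeR. Sepp1 stood at 2196, 1739 and 2197 CPM at day 0, 1785, 1933 and 1770 at day 7, and 1922, 1822 and 2971 at day 20. The groups overlapped, and the day 7 change of -0.06 had a normal-approximation 95% interval of -0.55 to 0.43 (adjusted p = 0.890 in edgeR).

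Gpx1, the cytosolic glutathione peroxidase, stood at 661, 640 and 503 CPM at day 0, 402, 510 and 506 at day 7, and 397, 512 and 403 at day 20. Its highest 2 libraries were both from day 0, and the third fell among the light libraries. The changes were -0.29 (SE 0.27, adjusted p = 0.464 in edgeR) at day 7 and -0.45 (SE 0.27, adjusted p = 0.436) at day 20. Gpx4, which reduces lipid peroxides within membranes, stood at 404, 255 and 415 at day 0, 432, 726 and 506 at day 7, and 308, 455 and 277 at day 20. All day 7 libraries lay above day 0, as for 12.6% of genes, but the change of 0.75 (SE 0.32) did not pass (adjusted p = 0.0969). Without the 2 smallest libraries, day 7 replicate 3 and day 20 replicate 3, it did (0.92, adjusted p = 0.0346). Over the 9 members tested, the median fitted change was 0.50 at day 7 and 0.12 at day 20, beside -0.10 and -0.02 over all 1439 genes.

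**Figure D4:**
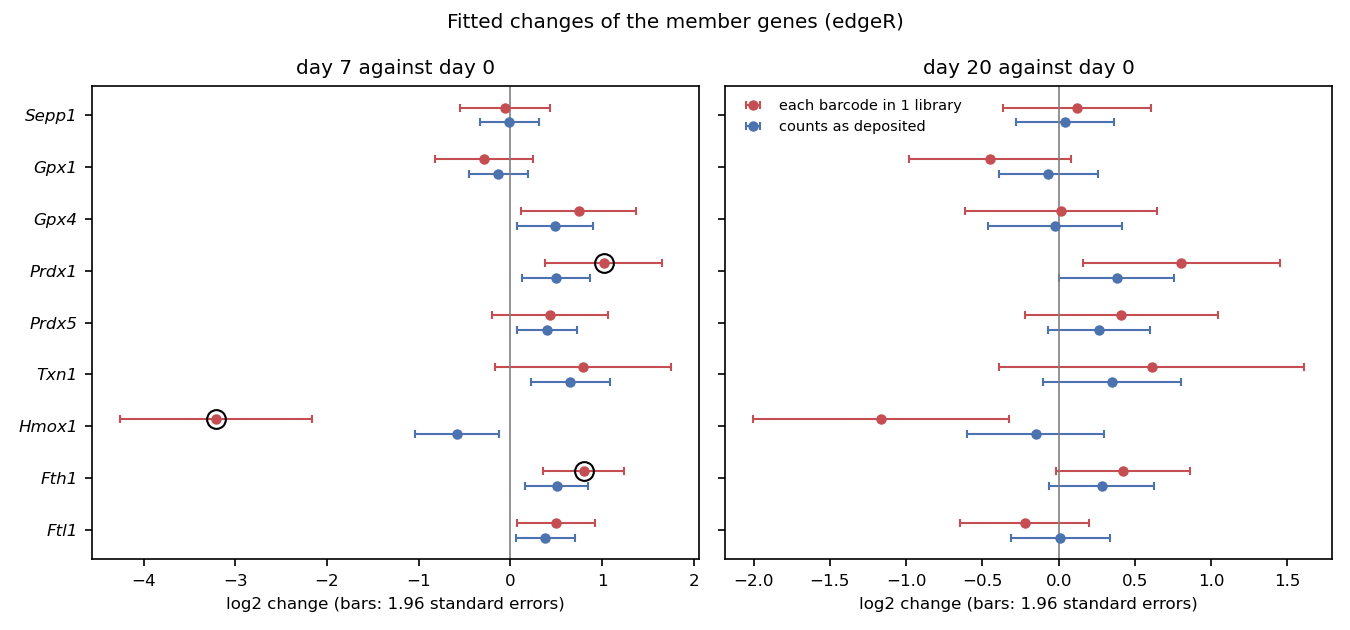
Fitted log2 change of the 9 members tested (y axis) at day 7 and at day 20 against day 0 (x axis, log2 scale, bars for the normal-approximation 95% interval). Red is with each barcode in 1 library and blue with the counts as deposited. A ring marks an adjusted p under 0.05. Rings fall on Hmox1 (-3.21), Prdx1 (1.02) and Fth1 (0.80) at day 7 in the single-library counts only.

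Levels of the members also differed between retained and left-out cells, each pooled over libraries and described here without a test between libraries. No member is on a list that sets them apart, and 77 of the 121 left-out cells were from day 0. Of these, 27 came from day 0 replicate 1 and 35 from day 0 replicate 3. The intervals below cover counting error only, and the share of all genes that differ between these cells is not given. Among cells thinned to 580 UMIs, Sepp1 was detected in 63.0% of retained and 19.3% of left-out cells (exact 95% interval 11.4 to 29.4), and Gpx1 in 20.6% and 6.02% (1.99 to 13.5). Gpx4 went the other way, at 18.2% of retained and 59.0% of left-out cells (47.7 to 69.7), as did Sod1, at 2.19% and 8.43% (3.46 to 16.6). In pooled counts Gpx4 was at 413 CPM in retained cells (exact 95% interval 376 to 453), against 1624 in left-out cells (1443 to 1822) and 2127 in those highest in rod markers (1849 to 2435). Of the glutathione peroxidases, Gpx1 was thus higher in retained cells and Gpx4 in left-out cells. The rod list was highest at day 0 in retained cells and Gpx4 at day 7. Whether rod RNA had a part in the Gpx4 level of retained cells was not tested.

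Ftl1 stood at 11559 CPM in retained and 2316 in left-out cells, and Fth1 at 9908 and 3332. The ratio of Fth1 to Ftl1 was 0.857 in retained cells, 1.94 in cells highest in rod markers and 0.925 in those highest in Müller glia markers. Hmox1 was at 222 CPM in retained and 50.2 (22.97 to 95.3) in left-out cells. Its share of cells at equal depth did not follow, at 6.02% of retained and 7.23% of left-out cells (2.70 to 15.1). The shares of Prdx1 and of Prdx5 were 20.4% and 21.4% in retained cells and 14.5% of left-out cells for each, and that of Txn1 was 7.66% and 6.02%. Differences of this last size are within the counting error of the 83 left-out cells that reached 580 UMIs.

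**Figure D5:**
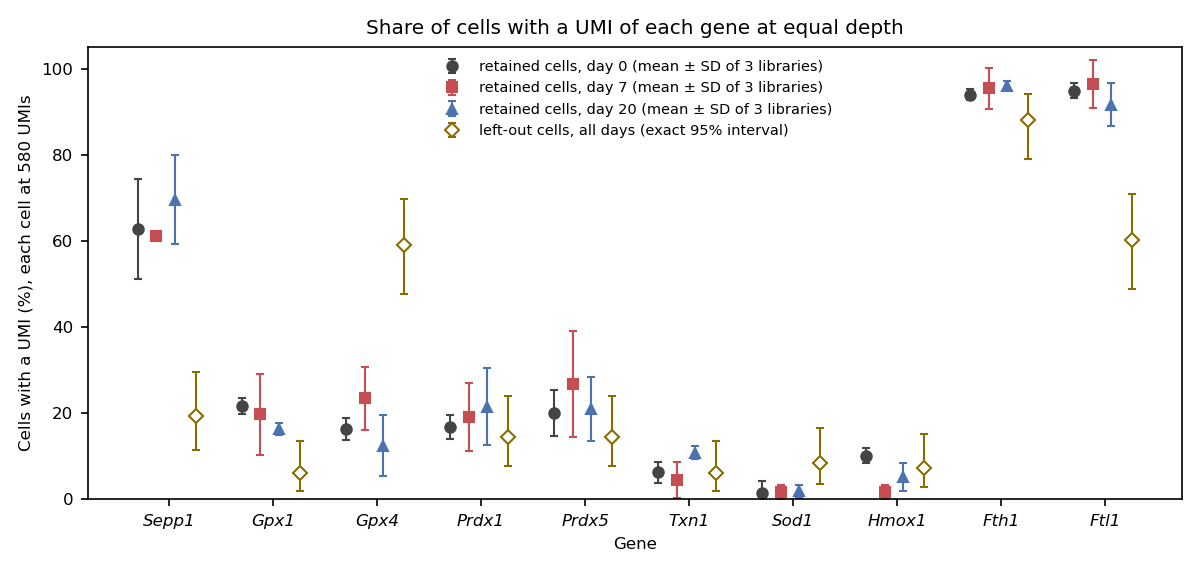
Share of cells with at least 1 UMI of each of the 10 genes after thinning every cell to 580 UMIs (y axis, percent from 0), for retained cells by day (mean ± SD of 3 libraries) and for left-out cells pooled (exact 95% interval). Gpx4 and Sod1 are detected in more of the left-out cells than of the retained ones, and Sepp1, Gpx1 and Ftl1 in fewer.

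Major histocompatibility complex (MHC) class II genes, which present antigen, mark part of the myeloid cells of the injured retina. Among retained cells thinned to 580 UMIs, positive cells had at least 2 UMIs of Cd74, H2-Aa, H2-Ab1 and H2-Eb1 together, negative cells had 0, and cells with 1 were left out. The 2 classes were compared within day 7 replicates 1 and 2 and day 20 replicates 1 and 2, which had enough cells of both kinds. None of the 7 members that could be tested passed, nor did any of 299 genes (0%). Of the 299, 11 had an unadjusted p under 0.05 in edgeR. DESeq2 also called 0. Fth1 was at 13102, 13408, 12433 and 11169 CPM in positive cells and 13136, 11268, 11291 and 10147 in negative cells of the same libraries. The Fth1 difference was 0.13 on the log2 scale, with a normal-approximation 95% interval of -0.16 to 0.42, and that of Ftl1 was -0.14 (-0.47 to 0.19). Such intervals are narrower than ones matched to the edgeR test with so few libraries. Intervals of the other members tested were wider, such as -1.38 to 0.52 for Gpx1 and -0.81 to 0.95 for Gpx4.

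Of 103 other genes of glutathione, peroxiredoxin and thioredoxin, superoxide, selenoprotein, iron and heme, NRF2 and BACH1 and NADPH oxidase lists found in the tables, 29 had enough UMIs to be tested. At day 7, 5 rose and 4 fell. At day 20, 1 rose and none fell. These counts, 9 and 1 of 29, stand beside the 26% and 2.92% of all genes.

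By list, the day 7 calls were 3 of 6 genes tested for NADPH oxidase, 3 of 4 for NRF2 and BACH1, 2 of 6 for other selenoproteins and 1 of 4 for glutathione. None of the 6 tested of the iron and heme list nor of the 3 of the peroxiredoxin and thioredoxin list passed, and no superoxide gene could be tested. Whether these day 7 calls held with the counts as deposited is not given.

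NADPH oxidase is the enzyme that makes superoxide in phagocytes. Cybb, the catalytic subunit, stood at 12.2, 0 and 10.9 CPM at day 0, 167, 226 and 202 at day 7, and 154, 133 and 50.4 at day 20. Its 71 UMIs at day 7 against 3 at day 0 gave a ratio of 27.4 (counting interval 9.02 to 136), and 35 at day 20 a ratio of 18.9 (5.96 to 96.1). Cybb passed in both comparisons (adjusted p = 7.5e-05 at day 7 and 0.0033 at day 20 in edgeR). Its day 20 call was lost with the counts as deposited, where no gene passed at day 20 against day 0. Cyba, the membrane partner of Cybb, rose at day 7 from 752, 797 and 864 to 1145, 1266 and 1365 (adjusted p = 0.0415). Ncf1, a cytosolic subunit, fell from 251, 234 and 251 to 75.8, 78.5 and 152 (adjusted p = 0.0101). In day 7 replicate 3 the Cybb level stands on 4 UMIs and the Ncf1 level on 3. Subunits of the same enzyme thus moved in opposite directions.

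Among the other selenoproteins, Sepw1, a small redox protein, stood at 214, 167 and 65.6 CPM at day 0, 352, 491 and 405 at day 7 and 179, 108 and 227 at day 20. It rose at day 7 (adjusted p = 0.00958 in edgeR) and fell from day 7 to day 20 (adjusted p = 0.0465). The call from day 7 to day 20 was lost with the counts as deposited, where no gene passed in that comparison. Msrb1, which reduces oxidised methionine, rose from 30.6, 26.03 and 43.7 to 129, 245 and 50.6 at day 7 (adjusted p = 0.00474). Unlike Sepp1, Gpx1 and Gpx4, these genes passed, but the difference between them and the members was not tested. Glrx3, a glutaredoxin that carries iron-sulfur clusters, rose at day 7 from 55.1, 52.1 and 76.5 to 152, 128 and 101 (adjusted p = 0.0318). In day 7 replicate 3 the Msrb1 level stands on 1 UMI and the Glrx3 level on 2, below the floor of 3 UMIs (152 CPM).

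Of the genes around the NRF2 and BACH1 factors, which control Hmox1, Sqstm1, an autophagy receptor, fell beside it. Sqstm1 stood at 496, 406 and 557 CPM at day 0, 114, 128 and 101 at day 7 and 141, 424 and 151 at day 20 (adjusted p = 0.00221 at day 7 in edgeR). The 101 in day 7 replicate 3 stands on 2 UMIs. Day 20 replicate 2 lay within the day 0 range of Sqstm1 and close to that of Hmox1, and the other light libraries lay below. The small Maf proteins Maff and Mafg also passed at day 7 (adjusted p = 0.0166 and 0.0284), but their groups overlapped, and of the 4 Maff UMIs at day 7, 3 were in replicate 3.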

How the data were processed

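The 9 libraries were those of day 0, day 7 and day 20, with 3 replicates each. The authors made and deposited raw UMI counts for each gene and barcode with Cell Ranger (version and filters not given in the sources used here) on mm10, and the deposited tables listed 247290 to 441678 UMIs for each library. Titles give the times in hours and the treatment labels in days, and days were used. The 10 members and the gene lists were chosen with earlier results of these data known. Every member is named, as is each other listed gene past an adjusted p of 0.05, up to 20.

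Each of 5022 barcode entries was kept only in the library with its highest UMI total. The next library held a median of 23.8% of that total. Cells needed at least 200 detected genes, under 10% mitochondrial UMIs, at least 5 UMIs of the myeloid list and more of it than of any other list. No doublet caller was run. Raw UMIs were summed over the retained cells of a library and tested in edgeR 4.0.16 (quasi-likelihood, TMM, filterByExpr, R 4.3.3), with all 9 libraries in 1 fit and Benjamini-Hochberg adjustment over 1439 genes. In simulated counts for these genes, 181 of 195 changes by a fold of 4 at day 7 against day 0 were recovered (92.8%), and 6.2% of calls were false. This rate does not apply to smaller changes, such as those fitted for the members other than Hmox1. Shares used cells thinned to 580 UMIs, the 25th percentile, with exact permutation tests (SciPy 1.17.1) and p-values adjusted over all 1439 genes in place of the 10 members as first planned. Gene positions came from GENCODE M21, where 27645 of the gene identifiers (98.7%) matched. Intervals of counts and shares, and floors, cover counting error only. Intervals of fitted changes were taken from the SE by a normal approximation.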

Additional observations from a re-analysis of the deposited data

How the results depend on the processing

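Depth was a limit: day 7 replicate 3 and day 20 replicate 3 had 16 and 32 retained cells, and Sod1, Txn1 and Hmox1 were at 0 in the first. Of 736 values recomputed for 33 results under other settings, 550 kept both direction and side of the threshold, or a similar size for counts of calls. The 550 include results without a call that stayed without one. Of the rest, 88 lost their side of the threshold, 12 gained it, 9 changed direction and 77 counts of calls moved. Correlations of same-numbered libraries were -0.022 to 0.150, and those of differently numbered libraries -0.130 to 0.0861, so no clear pairing by replicate number was seen. Such weak correlations cannot settle whether libraries of the same number were handled together. With a replicate block the genes called were 377 at day 7 and 46 at day 20 against day 0, 72 at day 20 against day 7 and 292 for both light days against day 0. In these fits Hmox1 lost its call at day 20 against day 7 (adjusted p = 0.0695 in edgeR) and Ftl1 gained one (adjusted p = 0.0484). Causes were not tested unless stated.

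At day 7 against day 0, 374 genes and 3 members were called, and 187 to 539 genes and 1 to 4 members with 1 library left out. Without day 0 replicate 2, day 0 replicate 3, day 7 replicate 1 or day 7 replicate 2 only Hmox1 passed, and without day 7 replicate 3 there were 4. Genes and members called were 69 and 0 with the counts as deposited, 183 and 1 with non-myeloid cells included, and 80 and 1 with clusters left out by the planned rule, which kept 236 cells. They were 116 and 1 at equal depth, where Hmox1 was too low to be tested, and 616 and 6 without the 2 smallest libraries (chosen after seeing the data). Without the deepest cells 244 genes were called. The members called were 1 with library totals in place of TMM factors and 1 with no filter on low counts, and 2 where barcodes with a large second library were left out (Fth1 lost, adjusted p = 0.105 in edgeR). Library totals moved the median change of all genes by -0.178 at day 7, 0.132 at day 20 against day 7 and -0.112 for both light days.

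At day 20 against day 0, 42 genes and 0 members were called (29 to 48 and 0 to 1 with 1 library left out, the 1 being Hmox1 without day 20 replicate 2). The genes were 0 as deposited, 14 with at least 500 detected genes, 22 with the planned clusters and 113 without the deepest cells.

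At day 20 against day 7, 77 genes and 1 member were called (13 to 97 and 0 to 1 with 1 library left out). Genes were 0 as deposited, 12 with non-myeloid cells, 4 with the planned clusters, 20 at equal depth, 13 without the deepest cells, 50 with no filter and 43 with only these days in the fit. Without the 2 smallest libraries there were 134 genes and 2 members. Members were 0 as deposited, with 100 or 500 detected genes, with non-myeloid cells, with either cluster rule, at equal depth, without the deepest cells, with RLE size factors, with no filter, and with only these days in the fit.

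For both light days against day 0, 279 genes and 3 members were called (167 to 441 and 1 to 3 with 1 library left out). Genes and members were 58 and 0 as deposited, 160 and 1 with 500 detected genes, 156 and 1 with non-myeloid cells, 67 and 1 with the planned clusters and 102 and 0 at equal depth. Members were 1 with library totals and 1 with no filter, and without the 2 smallest libraries 514 genes were called.

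No member's share of cells passed after adjustment, also with 300 UMIs in each cell, as deposited, with non-myeloid cells or with 1 library left out. For MHC class II, 0 genes and 0 members were called in each fit without 1 library, and 187 genes and 0 members with the counts as deposited, where cells of several libraries are the same barcodes. The ferritin ratio difference of 0.283 was 0.218 to 0.315 with 1 library left out, 0.0263 at equal depth and 0.153 without the deepest cells.

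Some directions turned, in each case without a call under that setting. With the planned clusters the day 7 change was -0.18 for Prdx1 (adjusted p = 0.831), -0.14 for Gpx4 and -0.32 for Prdx5. Sepp1 at day 7 was 0.21 with non-myeloid cells, 0.11 without the 2 smallest libraries and -0.16 to 0.066 with 1 library left out. The MHC class II difference of Ftl1 was 0.26 with cells of at least 1 UMI as positive and 0.059 with 5 cells for each class.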
